A study of Marmota monax with 203 samples.

Results

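Immune checkpoint receptors and their ligands were followed in the liver of Eastern woodchucks (Marmota monax) with chronic woodchuck hepatitis virus (WHV) infection during treatment with recombinant woodchuck interferon-α (wIFN-α). The 9 genes were chosen by their role and not by a threshold on their values: PDCD1 (PD-1), CD274 (PD-L1), PDCD1LG2 (PD-L2), CTLA4, LAG3, HAVCR2 (TIM-3), TIGIT, BTLA and LGALS9 (galectin-9). All 9 of them were among the 17587 gene symbols with reads, and all 9 matched a gene of the same name in the RefSeq annotation of the woodchuck.

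Animals of both sexes had been inoculated with WHV at 3 days of age and were about 1 year old when selected, so placebo and treated animals alike were chronic carriers. The wIFN-α group received 3 doses per week for 15 weeks, with 20 µg per animal at the biopsies of weeks 0 and 3 and 100 µg at those of weeks 7, 11 and 15, and the placebo group was dosed on the same schedule. Biopsies at week -3 preceded treatment, those of weeks 0 to 15 followed a dose by 6 hours (the first 20 µg dose at week 0 and the first 100 µg dose at week 7), and those of weeks 19 and 23 were taken off treatment. The placebo and wIFN-α groups held 12 and 11 biopsies at weeks -3 and 0, 12 and 9 at weeks 3 and 7, 10 and 8 at week 11, 9 and 8 at week 15, 5 and 6 at week 19, and 9 and 6 at week 23. These biopsies came from 12 placebo and 11 wIFN-α animals. Several animals died before the end, so the later groups are smaller, and M1004, a wIFN-α animal which the study thought was probably clearing WHV by itself as dosing began, was kept apart together with 8 biopsies of other weeks.

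Checkpoint receptors are inhibitory receptors of activated lymphocytes that restrain T cell signalling after they bind a ligand on an antigen-presenting or tissue cell. PD-1 binds PD-L1 and PD-L2, CTLA4 competes with CD28 for CD80 and CD86, LAG3 binds MHC class II, TIM-3 binds galectin-9, TIGIT binds the poliovirus receptor PVR, and BTLA binds TNFRSF14. In chronic viral hepatitis several of these receptors are known to be carried together by virus-specific T cells of the liver, and PD-L1 and galectin-9 are known to be interferon-inducible in hepatocytes and myeloid cells.

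Between 12072840 and 84805845 reads per biopsy lay on genes (median 28754894). Albumin had a median of 38880 CPM (reads of a gene scaled to the normalized library size), and the median summed level of the 10 hepatocyte markers at week 15 was 88900 CPM in placebo and 88010 CPM in wIFN-α liver. In 4 biopsies the 14 skeletal muscle markers held 8.05% to 14% of the CPM: placebo F1016 and wIFN-α F1018 at week -3, wIFN-α F1023 at week 0 and placebo F1021 at week 3. CD274 was at 13.2, 12.5, 15.3 and 7.25 CPM in these 4 biopsies, the highest value of its group in 3 of them. Other checkpoint genes were low there. In the same order, 4, 7, 3 and 0 of the 9 genes lay below all other biopsies of the group and week. The biopsy of wIFN-α animal F1013 at week 3 lay below all other wIFN-α biopsies of that week for 4 of the 9 checkpoint genes. For placebo M1008 at week 15, the 2 sequencing runs differed by a chi-square per degree of freedom of 131, against a median of 1.81 over the 38 biopsies with more than 1 run. PDCD1 was at 8.51 and 7.99 CPM in these 2 runs before scaling. Values without these biopsies are given where they change a call.

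In the 81 placebo biopsies the checkpoint genes covered a wide range of levels per length. HAVCR2 had the highest median, at 5.04 RPKM (reads scaled to gene length and library size, range 3.73 to 8.36), followed by LGALS9 at 3.15, PDCD1 at 1.60, LAG3 at 1.5, CD274 at 0.65, CTLA4 at 0.22, PDCD1LG2 at 0.20, BTLA at 0.11 and TIGIT at 0.01 RPKM. HAVCR2 exceeded LGALS9 in 78 of 81 placebo biopsies, LAG3 exceeded CD274 in 76 and CD274 exceeded CTLA4 in 80. PDCD1 exceeded LAG3 in 51 and CTLA4 exceeded PDCD1LG2 in 44 of 81, so these neighbours were not set apart by their level. The place of LGALS9 is uncertain, because the files also list 2 further galectin-9 symbols, LGALS9B (median 5.84 RPKM) and LGALS9C (17.5 RPKM). Their sequences were not compared here, and whether reads were shared among the 3 was not tested. TIGIT had reads in 128 of the biopsies compared, with a median of 2 reads and at most 31, and did not pass the filter of the weekly fits.

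Before treatment, at week -3, none of the 8 genes tested was called, nor was any of the 14963 genes tested (0% called, with 130 genes at an unadjusted p under 0.05 in edgeR, none of them a checkpoint gene, and 0 of 7 checkpoint genes with an adjusted p called in DESeq2). Calls required both a fold change above 1.5 and significance at 0.05 after adjustment over all genes. By this rule 4 of the 8 genes rose at week 0 (10.3% of all genes tested rose), 3 at week 3 (7.24%), 4 at week 7 (11.4%), 6 at week 11 (12.6%) and 6 at week 15 (13.4%), and none fell. The genes fell into those that were higher from the first dose (CD274, PDCD1LG2, LGALS9 and LAG3) and those called only at weeks 11 and 15 (PDCD1 and CTLA4), whereas HAVCR2 stayed below the fold threshold and BTLA did not pass the test.

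**Figure D1:**
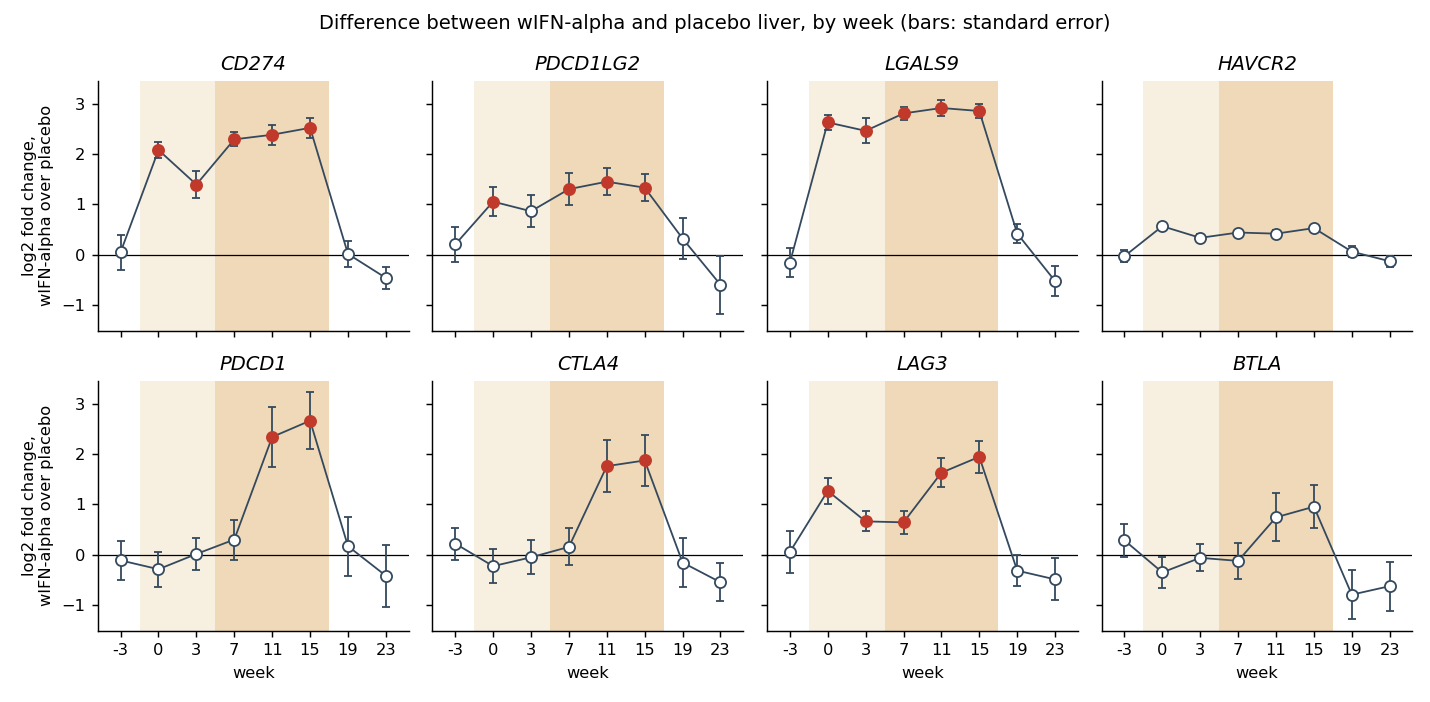
The log2 fold change of wIFN-α over placebo (vertical axis) is plotted against the week (horizontal axis) for the 8 checkpoint genes tested. Bars are standard errors, filled red points passed both thresholds, open points did not, and the light and dark bands mark the weeks at 20 and 100 µg. PDCD1 and CTLA4 stayed near 0 to week 7 and stood at 2.66 and 1.87 at week 15, whereas CD274 and LGALS9 were at 2.08 and 2.63 from week 0.

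The ligands of PD-1 rose from the first dose. CD274 (RefSeq gene 124093427) encodes PD-L1. At week 0 it ranged from 1.10 to 3.61 CPM in placebo liver (median 2.75) and from 7.74 to 15.9 CPM in wIFN-α liver (median 11.4). All 11 treated animals lay above all 12 placebo animals, and the log2 fold change was 2.08 (SE 0.16, adjusted p = 2.27e-10). The groups did not overlap at weeks 7, 11 and 15 either, with wIFN-α medians of 10.4, 13.3 and 13.7 CPM against placebo medians of 2.41, 2.34 and 2.47 CPM. The log2 fold changes were 2.29 (SE 0.14), 2.38 (SE 0.20) and 2.52 (SE 0.20) at these weeks, the last with an adjusted p of 1.45e-08. At week 3 the effect was 1.39 (SE 0.27, adjusted p = 0.000641) and 7 of 9 treated animals exceeded every placebo animal. F1013 was at 2.31 CPM in that week, among the placebo animals, whereas the other treated animals were at 6.26 to 15.8 CPM. Without the muscle-containing placebo biopsy and F1013 the effect at week 3 was 1.68 (adjusted p = 2.08e-06).

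PDCD1LG2 (RefSeq gene 124093443), encoding PD-L2, was expressed at a lower level and rose less. At week 0 it ranged from 0.28 to 0.99 CPM in placebo liver (median 0.82) and from 0.29 to 2.86 CPM in wIFN-α liver (median 1.35), with 9 of 11 treated animals above every placebo animal. The log2 fold change was 1.06 (SE 0.30, adjusted p = 0.00705) at week 0, 1.30 (SE 0.32, adjusted p = 0.00184) at week 7, 1.45 (SE 0.27, adjusted p = 0.000306) at week 11 and 1.33 (SE 0.27, adjusted p = 0.000829) at week 15. The groups did not overlap at week 15, when the treated animals held 0.95 to 2.49 CPM and the placebo animals 0.26 to 0.92 CPM. At week 3 the effect was 0.86 (SE 0.32) and was not called (adjusted p = 0.0602), and it was called without F1013 (0.99, adjusted p = 0.0172) or F1014 (0.99, adjusted p = 0.0232), with DESeq2, with sex in the fit, with the deepest runs only, with M1004 included and in 1 fit of all weeks (adjusted p between 0.0314 and 0.0494). In the fit that took each animal as a block, the effects of weeks 0, 7 and 15 were 0.92, 1.03 and 1.08 and missed the threshold (adjusted p = 0.0709, 0.051 and 0.051). The counts were low, between 1 and 176 reads per biopsy.

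LGALS9 (RefSeq gene 124078913) encodes galectin-9, a ligand of TIM-3, and had the largest log2 fold change of the 8 genes at each week from 0 to 15. Placebo livers held 12.5 to 29.4 CPM at week 0 (median 15.8), and wIFN-α livers held 81.8 to 157 CPM (median 108). The 11 treated animals all exceeded the placebo animals, and the log2 fold change was 2.63 (SE 0.15, adjusted p = 4.85e-13). The effect was 2.46 (SE 0.25) at week 3, 2.81 (SE 0.13) at week 7, 2.91 (SE 0.16) at week 11 and 2.85 (SE 0.14) at week 15, and at weeks 7, 11 and 15 the groups did not overlap. Within the treated group the level was narrow at week 15, from 83.0 CPM in F1020 to 121 CPM in F1014. At week 3 F1013 was at 12.8 CPM, within the placebo range of 10.7 to 22.4 CPM, while the median of its group was 108 CPM. Since galectin-9 reads could be split among 3 symbols, the 3 were also summed: the sum ranged from 40.1 to 80.7 CPM in placebo and from 333 to 484 CPM in wIFN-α liver at week 15, with a log2 fold change of 2.81.

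HAVCR2 (RefSeq gene 124103376) encodes TIM-3, a receptor of T cells, NK cells and macrophages. It differed by a small and even amount. At week 0 the placebo animals ranged from 15.2 to 22.4 CPM (median 19) and the treated animals from 25.1 to 33.6 CPM (median 29.0), without overlap. The fold change was 1.48 at week 0, 1.26 at week 3, 1.36 at week 7, 1.34 at week 11 and 1.44 at week 15. Each of these had an adjusted p under the threshold, between 5.77e-07 at week 7 and 0.00505 at week 3, but none reached the 1.5-fold threshold, so HAVCR2 was not called. The spread was small: at week 15 the SD was 2.05 CPM about a mean of 18.8 CPM in 9 placebo animals and 1.84 CPM about 26.9 CPM in 8 treated animals, and the groups did not overlap.

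LAG3 (RefSeq gene 124078980), a receptor of activated T and NK cells, rose at the first dose, had smaller effects at weeks 3 and 7, and had its largest effects at weeks 11 and 15, although none of the 4 contrasts between treatment weeks described further on passed the test for LAG3. At week 0 it ranged from 1.18 to 4.69 CPM in placebo (median 2) and from 2.92 to 8.30 CPM in wIFN-α liver (median 5.99), a log2 fold change of 1.27 (SE 0.25, adjusted p = 0.000317). The effects of 0.66 at week 3 (SE 0.20, adjusted p = 0.0232) and 0.64 at week 7 (SE 0.23, adjusted p = 0.0257) passed both thresholds. They missed the adjusted p in the fit with the animal as a block (0.60 and 0.61, adjusted p = 0.317 and 0.282) and in 1 fit of all weeks (adjusted p = 0.104 and 0.0937). The week 3 call was also lost without F1020 (adjusted p = 0.0544), and the week 7 call without M1002 (adjusted p = 0.079) and with limma-voom (adjusted p = 0.0667). At week 15 all 8 treated animals, at 5.73 to 34.1 CPM, lay above the 9 placebo animals, at 1.91 to 3.79 CPM. The log2 fold change was then 1.95 (SE 0.32, adjusted p = 9.07e-05), after 1.63 (SE 0.29, adjusted p = 0.00021) at week 11. F1020 was highest at both weeks, and without it the effects were 1.51 and 1.33, still called.

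**Figure D2:**
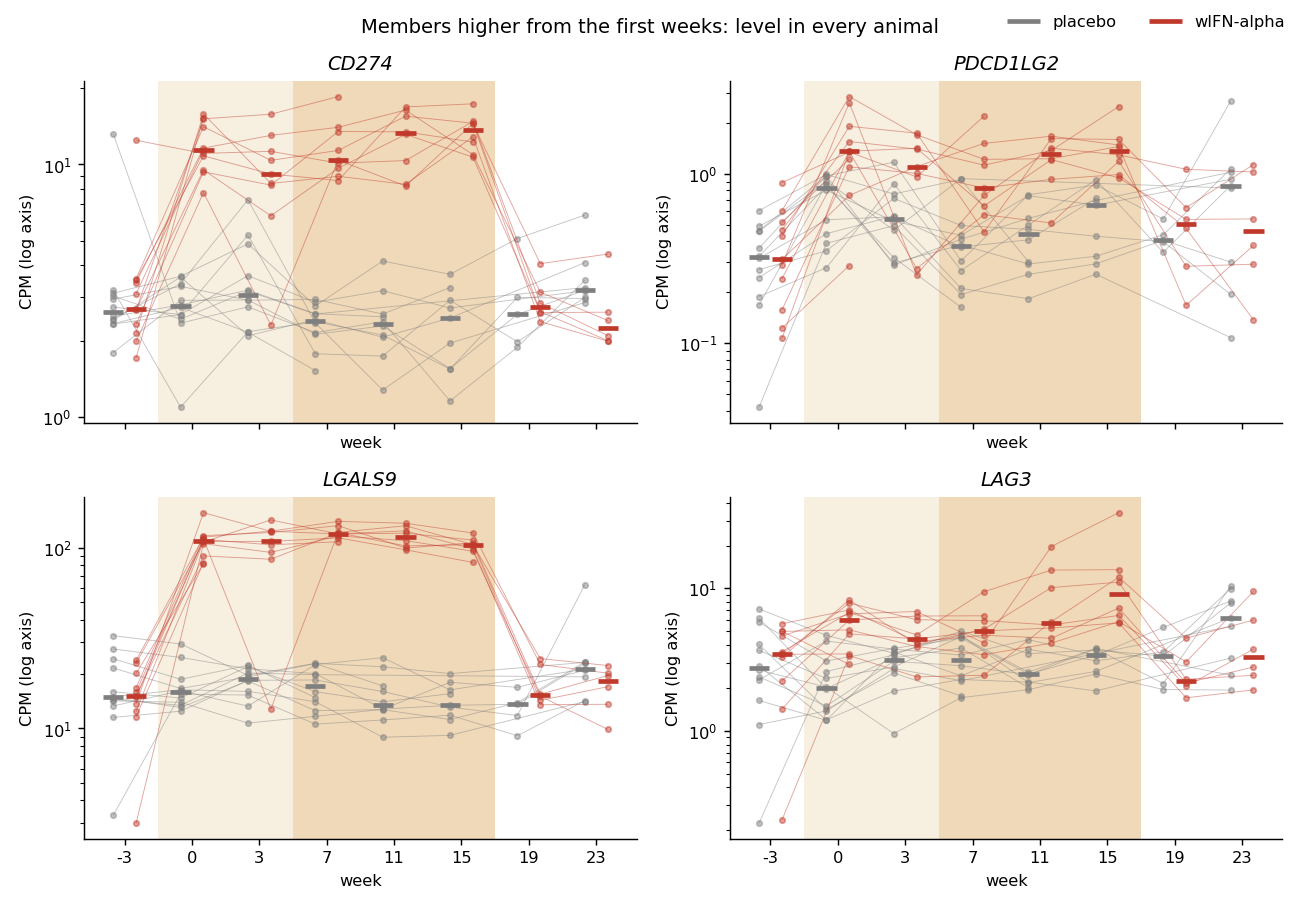
The level of CD274, PDCD1LG2, LGALS9 and LAG3 in CPM (vertical log axis) is plotted against the week (horizontal axis), with 1 point per animal, thin lines joining the biopsies of an animal and thick bars at the group medians (grey, placebo, and red, wIFN-α). The treated medians stood above the placebo medians at weeks 0 to 15, with F1013 low at week 3 (CD274 2.31 CPM, LGALS9 12.8 CPM) and with overlap for PDCD1LG2 and LAG3, and the groups overlapped at weeks 19 and 23.

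PDCD1 (RefSeq gene 124080776) encodes PD-1. Its effect was -0.29 (SE 0.35) at week 0, 0.02 (SE 0.33) at week 3 and 0.30 (SE 0.40) at week 7, with adjusted p-values of 0.568, 0.979 and 0.558. At week 11 the placebo animals ranged from 0.69 to 6.22 CPM (median 2.63). The treated animals were at 1.98 CPM in F1014, 2.20 in F1013, 2.55 in M1012, 10.5 in M1003, 11.2 in F1018, 11.4 in F1022, 33.0 in M1002 and 54.5 in F1020. Thus 5 of 8 treated animals exceeded every placebo animal while the other 3 lay below the placebo median. The log2 fold change was 2.34 (SE 0.60, adjusted p = 0.00472). At week 15 the placebo animals ranged from 0.88 to 7.03 CPM (median 3.08). The treated animals were at 3.75 CPM in M1012, 6.53 in F1014, 6.60 in F1013, 8.10 in F1022, 19 in F1018, 25.8 in M1002, 27.8 in M1003 and 67.0 in F1020. All 8 treated animals were above the placebo median and 5 were above every placebo animal, with a log2 fold change of 2.66 (SE 0.56, adjusted p = 0.00103). F1020 set part of the size: without it the effects were 1.74 at week 11 (adjusted p = 0.0183) and 2.11 at week 15 (adjusted p = 0.00255).

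CTLA4 (RefSeq gene 124105791) encodes a receptor that is induced on activated T cells and held by regulatory T cells. Its effect lay between -0.23 and 0.16 at weeks 0, 3 and 7, with adjusted p-values of 0.652, 0.936 and 0.756. At week 11 the placebo animals ranged from 0.15 to 0.62 CPM (median 0.32), and the treated animals were at 0.20 CPM in F1013, 0.26 in M1012, 0.40 in F1014, 0.63 in M1003, 0.65 in F1018, 0.82 in F1022, 1.69 in M1002 and 4.87 in F1020. The same 5 animals as for PDCD1 exceeded all placebo animals. The log2 fold change was 1.76 (SE 0.52, adjusted p = 0.0123) at week 11 and 1.87 (SE 0.51, adjusted p = 0.00644) at week 15. At week 15 the treated animals ranged from 0.39 CPM in M1012 to 5.83 CPM in F1020, 4 of 8 of them above every placebo animal. Without F1020 the effect at week 11 was 0.93 and was not called (adjusted p = 0.0705), and at week 15 it was 1.25 (adjusted p = 0.0193). With limma-voom the week 11 effect was 1.27 (adjusted p = 0.062).

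**Figure D3:**
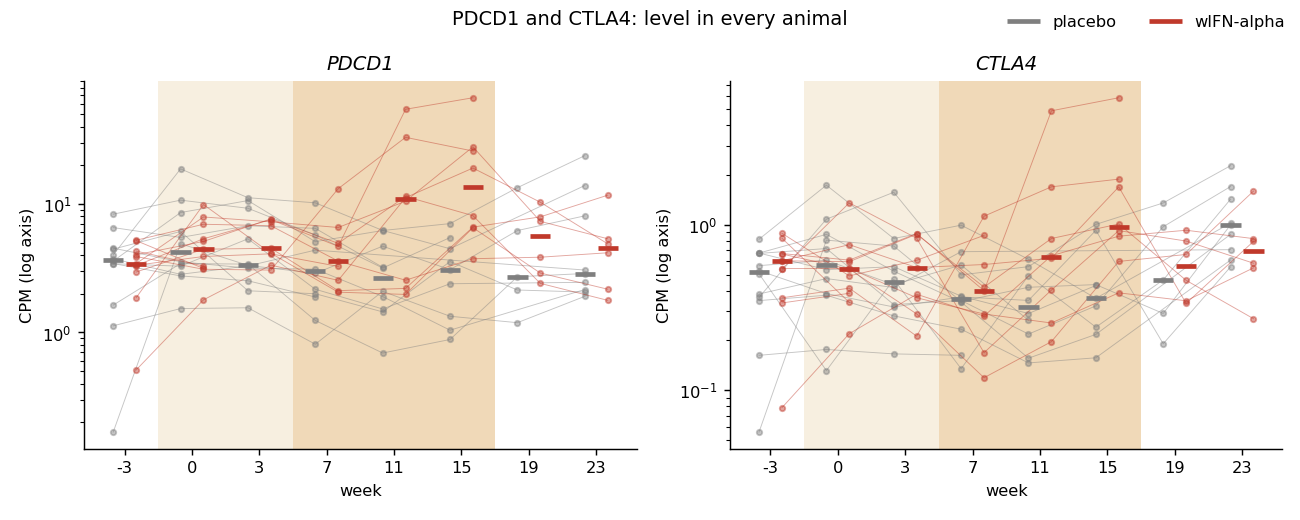
The level of PDCD1 and CTLA4 in CPM (vertical log axis) is plotted against the week (horizontal axis), drawn as in the plot of the genes raised from the first dose. The groups were mixed up to week 7, and the treated animals spread upward at weeks 11 and 15, with F1020 highest at 67.0 CPM of PDCD1 and 5.83 CPM of CTLA4 at week 15.

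BTLA (RefSeq gene 124079585), an inhibitory receptor of T and B cells, was not called at any week. At week 15 it ranged from 0.12 to 1.18 CPM in placebo (median 0.40) and from 0.22 to 2.32 CPM in wIFN-α liver (median 0.90), and the groups overlapped. The effect was 0.96 (SE 0.43, adjusted p = 0.0856). The highest placebo animal was M1008, and without it the effect was 1.27 and passed the test (adjusted p = 0.0217), as did the effect without F1013 (1.09, adjusted p = 0.0422). At week 11 the effect was 0.74 (SE 0.47, adjusted p = 0.232), and 1.18 without M1008 (adjusted p = 0.0386).

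TIGIT (RefSeq gene 124079551), a receptor of T and NK cells, was near the limit of what these libraries could show. At week 11 it had 1 to 5 reads in the placebo biopsies and 0 to 31 reads in the treated biopsies. The placebo animals ranged from 0.03 to 0.13 CPM (median 0.06). In CPM, 5 of 8 treated animals exceeded all of them: M1012 at 0.17, F1018 at 0.22, M1002 and M1003 at 0.26 and F1020 at 0.68. M1012 had only 2 reads, within the placebo range of reads, in the smallest library of those compared. F1014 had no read, a count that allows up to 3 reads of its library. In the week 11 fit without the filter on low counts the log2 fold change was 1.66 (SE 0.53, adjusted p = 0.0213), and in 1 fit of all weeks it was 1.65 (SE 0.58, adjusted p = 0.0191), so TIGIT was called higher in both. With the animal as a block it was 0.92 (adjusted p = 0.427). At week 15 it had 1 to 9 reads in the placebo biopsies and 1 to 24 reads in the treated biopsies. The highest level was 1.07 CPM in F1020, followed by 0.39 in M1002 and 0.28 in F1018, and the remaining 5 treated animals were within the placebo range of 0.04 to 0.19 CPM. The effect at week 15 was 1.27 in both of these fits and was not called (adjusted p = 0.0889 without the filter and 0.0692 in the fit of all weeks), nor was any effect at the remaining weeks.

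Whether the effect changed between weeks was tested in 1 fit of all weeks, in which all 9 genes passed the filter and a call needed an adjusted p under 0.05. TIGIT passed this filter only with F1020 present: it had values in 10 of the 11 fits that left out 1 wIFN-α animal, and none without F1020. From weeks 0 and 3 to week 15 the effect on PDCD1 grew by 2.78 on the log2 scale (SE 0.61, adjusted p = 0.00172) and that on CTLA4 by 1.98 (SE 0.51, adjusted p = 0.0145), 2 of 9 genes where 2.26% of all genes changed in either direction. PDCD1 passed this test in each of the 20 alternatives run (2.27 to 2.97, highest adjusted p = 0.0258), whereas CTLA4 missed it without F1020 (1.42, adjusted p = 0.161) and with limma-voom (1.64, adjusted p = 0.0527). Dose and time on treatment rose together between these weeks and cannot be told apart. For the other genes the difference was 0.76 for CD274 (SE 0.30, adjusted p = 0.178), 0.28 for LGALS9 (SE 0.27, adjusted p = 0.731), 0.34 for PDCD1LG2 (SE 0.44), 0.95 for LAG3 (SE 0.40, adjusted p = 0.223), 0.05 for HAVCR2 (SE 0.11), 1.14 for BTLA (SE 0.48, adjusted p = 0.229) and 1.92 for TIGIT (SE 0.69, adjusted p = 0.126). With the animal as a block the difference for CD274 was 0.89 and passed (adjusted p = 0.0447).

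The first biopsy after a 100 µg dose, at week 7, gave effects that were not called different from those at 20 µg for any of the 9 genes (0.357% of all genes called, and none of the 9 at an unadjusted p under 0.05 in edgeR or called in DESeq2). The difference was 0.44 for PDCD1 (SE 0.56), 0.29 for CTLA4 (SE 0.49) and 0.55 for CD274 (SE 0.28). Between weeks 7 and 15, both at 100 µg, the effect on PDCD1 grew by 2.34 (SE 0.70), that on CTLA4 by 1.69 (SE 0.59) and that on LAG3 by 1.27 (SE 0.46). These did not pass the adjustment over all genes (adjusted p = 0.223, 0.472 and 0.506), in a comparison that called 0.0246% of genes. They were the 3 checkpoint genes with an unadjusted p under 0.05 in edgeR, and DESeq2 called none. Between weeks 0 and 3, both at 20 µg, no checkpoint gene was called (2.4% of all genes), and CD274 had a difference of -0.68 (SE 0.32, adjusted p = 0.278), the only one of the 9 genes with an unadjusted p under 0.05. DESeq2 called none there either.

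Off treatment no checkpoint gene passed the tests. At week 19 none was called (0% of all genes, 1859 genes at an unadjusted p under 0.05 in edgeR, 1 of them a checkpoint gene), nor at week 23 (0% of all genes, 2416 genes, none of them a checkpoint gene), and DESeq2 called none at either week. With both weeks summed per animal, none of the 8 genes tested was called, while 0.287% of all genes were, and 4206 genes but no checkpoint gene had an unadjusted p under 0.05. The effects of these 8 genes were all negative, from -0.84 (SE 0.45) for BTLA to -0.12 (SE 0.10) for HAVCR2, with -0.60 for LAG3 and -0.52 for CTLA4. CD274 was at a median of 2.72 CPM in wIFN-α and 2.55 CPM in placebo liver at week 19, after 13.7 and 2.47 CPM at week 15. LGALS9 was at 15.3 and 13.6 CPM, after 104 and 13.4 CPM. At week 23, 5 of 6 treated animals had CD274 below all 9 placebo animals. The log2 fold change was -0.46 (SE 0.22) and was not called (adjusted p = 0.316). For LGALS9, 2 of 6 lay below all placebo animals, with -0.52 (SE 0.30, adjusted p = 0.366). Over all genes, 27.8% changed in either direction from week 15 to weeks 19 and 23, and 2648 of 16232 fell. Seen as this change of the effect, 8 of 9 genes fell: LGALS9 by 2.87 (SE 0.30, adjusted p = 1.55e-14), PDCD1 by 2.75 (SE 0.67, adjusted p = 0.000664), CD274 by 2.71 (SE 0.34, adjusted p = 2.38e-11), LAG3 by 2.30 (SE 0.44, adjusted p = 1.47e-05), CTLA4 by 2.18 (SE 0.56, adjusted p = 0.00146), BTLA by 1.64 (SE 0.53, adjusted p = 0.0131), PDCD1LG2 by 1.44 (SE 0.49, adjusted p = 0.0187) and HAVCR2 by 0.53 (SE 0.12, adjusted p = 0.000201). These changes include the negative effects off treatment. For LAG3, CTLA4 and BTLA they thus exceeded the week 15 effects of 1.95, 1.87 and 0.96, the last not called. Placebo levels also differed between these weeks: LAG3 ranged from 1.91 to 3.79 CPM at week 15 and from 1.93 to 10.35 CPM at week 23. Without F1020 the changes of BTLA and PDCD1LG2 no longer passed (adjusted p = 0.059 and 0.0518). The change of PDCD1LG2 also missed with the lane number of the labels in the fit (adjusted p = 0.0869). TIGIT had a change of -1.68 (SE 0.74) and was not called (adjusted p = 0.0811), but passed without M1012 (-1.98, adjusted p = 0.0432) or F1013 (-1.91, adjusted p = 0.0483). Without F1020, its highest animal at week 15, TIGIT did not pass the filter and could not be tested. These changes share the week 15 samples with the weekly comparisons.

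The raised genes were also compared within the lane numbers of the run labels. Different libraries share both barcode and lane number, so a number does not stand for a single lane or sequencing batch. At weeks 0 to 15, 7 lane numbers held both groups. Within each, the mean difference on the log2 scale was 1.44 to 2.40 for CD274, 2.03 to 3.30 for LGALS9 and 0.57 to 1.37 for PDCD1LG2. It was 0.63 to 1.63 for LAG3 and 0.35 to 0.55 for HAVCR2. At weeks 11 and 15 alone it was 0.32 to 3.76 for PDCD1, above 0 in 7 of 7 lane numbers. For CTLA4 it was -0.08 to 2.64, above 0 in 6 of 7. Some held few biopsies at these weeks: lane number 5 had 1 of each group, and lane number 6 had 1 treated and 3 placebo biopsies.

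Most T cell markers rose only at weeks 11 and 15, the weeks at which PDCD1 and CTLA4 were called, whereas LAG3 was called from week 0. In bulk liver a change in the number of cells of a type cannot be told apart from a change in RNA per cell. The counts of markers that follow stand beside the 13.4% of all genes that rose and the 8.83% that fell at week 15, and the shares given earlier for the other weeks. Of the 14 T cell markers, 1 rose at weeks 0, 3 and 7 (and 1 fell at week 7, when 10.1% of all genes fell), 9 rose at week 11 and 10 at week 15, with a median log2 fold change of 1.03 at week 15 against -0.01 over all genes. Among them, CD2 rose by 1.87 (SE 0.47) and CD5 by 1.61 (SE 0.36). Their summed level at week 15 was 132 to 301 CPM in wIFN-α and 52.3 to 107 CPM in placebo liver. Of the NK and cytotoxic markers 5 of 11 had already risen at week 0 and 8 of 11 at week 15, their summed level being 40.8 to 87.5 CPM against 17.1 to 29.7 CPM at week 15, with GZMA, a granule protease, up by 2.29 (SE 0.37) and FASLG up by 2.11 (SE 0.28). Of the 3 regulatory T cell markers tested, FOXP3 rose by 1.11 (SE 0.33) and IKZF2 by 1.66 (SE 0.24) at week 15. Of 11 Kupffer cell and macrophage markers, 4 rose and CD163 fell, their summed level being 523 to 1508 CPM against 299 to 709 CPM. Of 7 dendritic cell markers, 2 rose, BATF3 by 1.81 (SE 0.31) and LAMP3 by 1.17 (SE 0.28), with a summed level of 25 to 80.9 CPM against 9 to 45 CPM. B and plasma cell markers (3 of 7 higher, among them MZB1 by 1.76), hepatocyte markers (1 of 10, FGB) and endothelial markers (LYVE1 higher and KDR lower, of 6) made up the rest, and none of the 14 skeletal muscle markers was called. No marker in these lists had a median of 0 reads. The part of cell numbers in the changes of the checkpoint genes was not tested.

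To set the checkpoint genes beside the T cell markers in the same biopsy, the log2 ratio of each gene to the mean of the 14 T cell markers was taken, as a description. CD274 remained higher in wIFN-α than in placebo liver on this scale by 1.72 at week 0 and 1.56 at week 15, and the groups did not overlap at weeks 0, 7, 11 and 15. LGALS9 remained higher by 2.30 and 1.90 at weeks 0 and 15. The ratio of PDCD1 at week 15 was 0.24 ± 1.06 (SD, n = 8) in wIFN-α and -1.12 ± 0.77 (SD, n = 9) in placebo liver, a difference of 1.36 with 4 of 8 treated animals above every placebo animal. With CD3E alone in place of the 14 markers the difference was 1.00. For CTLA4 the difference at week 15 was 0.42 and turned to -0.17 when 1 CPM in place of 0.1 CPM was added, and for LAG3 it was 0.70. PDCD1LG2 had 0.54 at week 0 and 0.26 at week 15, the latter turning to -0.25 with 1 CPM added. HAVCR2, TIGIT and BTLA had ratios lower in treated animals at week 15, by -0.45, -0.48 and -0.22, with overlapping groups. The 0.1 CPM added lay within the placebo range of TIGIT at week 15 (0.04 to 0.19 CPM) and compresses its log2 differences. Its log2 fold change in the week 15 fit without the filter was 1.27 (not called), so the sign of its ratio cannot be relied on. BTLA, at a placebo median of 0.40 CPM, is affected in the same way but less.

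**Figure D4:**
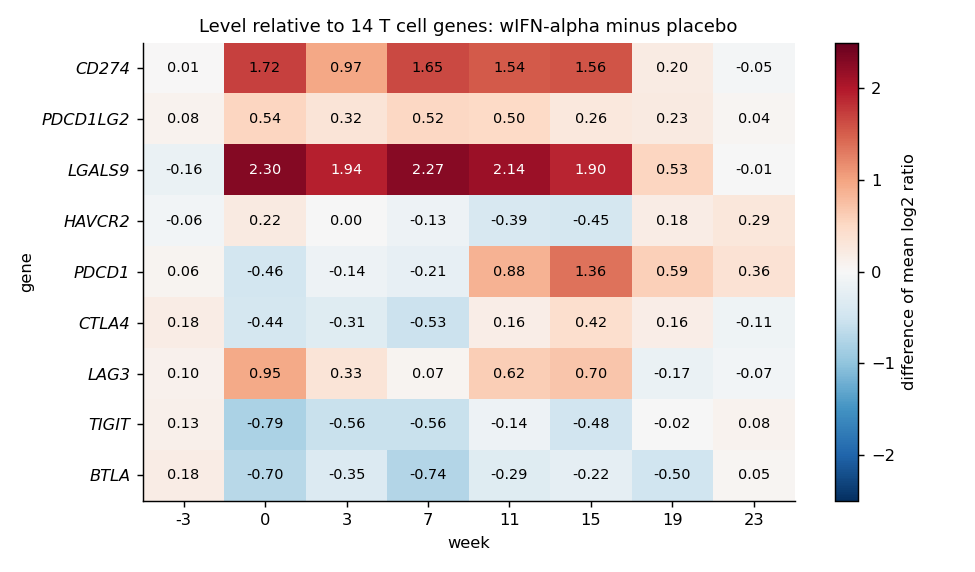
Each cell gives the mean log2 ratio of a checkpoint gene to the mean of 14 T cell markers in wIFN-α liver minus that in placebo liver, by gene (rows) and week (columns), with red for higher and blue for lower values. LGALS9 and CD274 are red at weeks 0 to 15 (2.30 and 1.72 at week 0), and PDCD1 is red at weeks 11 and 15 (0.88 and 1.36).

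Among animals of the same group and week, PDCD1, CTLA4, LAG3, TIGIT and BTLA varied together, and LGALS9 varied little with them. These correlations were taken on deviations from the mean of each group and week, over biopsies that share animals, libraries and depth. PDCD1 had an r of 0.75 with BTLA, 0.74 with CTLA4, 0.65 with LAG3 and 0.64 with TIGIT. LGALS9 had an r of 0.06 with PDCD1, and its highest value among the checkpoint genes was 0.47 with HAVCR2, which encodes its receptor TIM-3. With the mean of the T cell markers above 1 CPM (12 genes) the r was 0.81 for PDCD1, 0.75 for BTLA and 0.72 for CTLA4, against 0.25 for HAVCR2 and 0.16 for LGALS9. The correlations of CD274 changed when the 5 biopsies that stood apart were left out. With all biopsies its r was 0.22 with the T cell markers, 0.18 with PDCD1 and -0.05 with LAG3, and without those biopsies it was 0.64, 0.47 and 0.27. Without them the r of LGALS9 was -0.11 with PDCD1, -0.10 with the T cell markers and 0.37 with HAVCR2, and the r between PDCD1 and CTLA4 was 0.73.

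**Figure D5:**
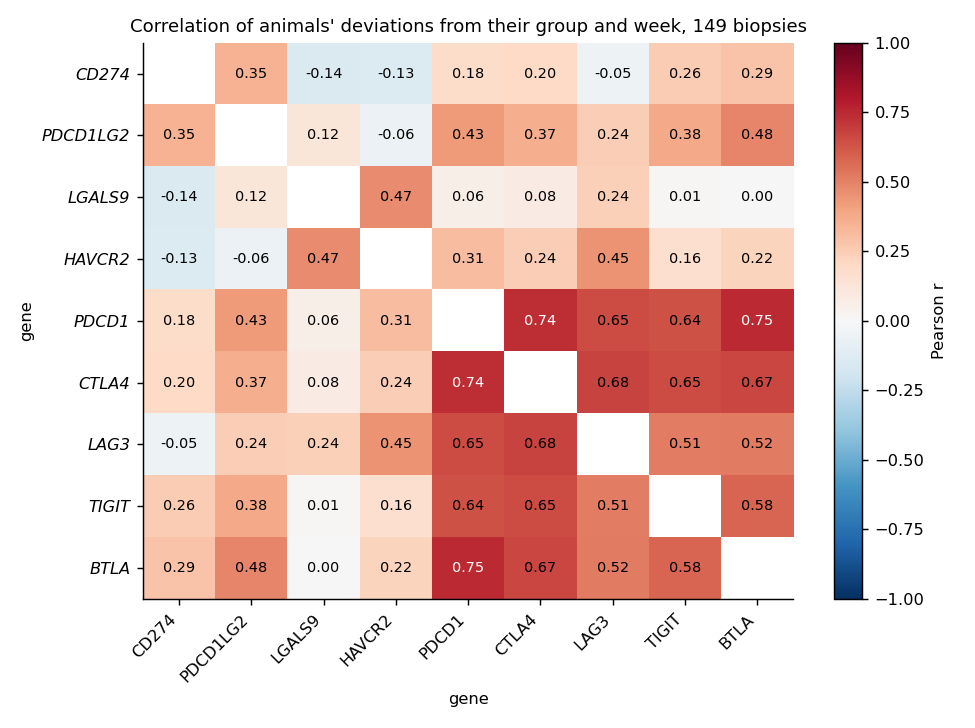
Each cell gives Pearson's r between 2 checkpoint genes (rows and columns) over all biopsies compared, on log2 levels after the mean of each group and week was removed. The block of PDCD1, CTLA4, LAG3, TIGIT and BTLA has r between 0.51 and 0.75, and LGALS9 has lower values with these 5, as with PDCD1 (0.06). The row of CD274 includes the 5 biopsies that stood apart, which are those with muscle RNA and that of F1013 at week 3. Without these 5 its r with PDCD1 was 0.47 instead of 0.18.

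Over the same biopsies the 3 genes most alike to PDCD1 were TOX (r = 0.89), a transcription factor of chronically stimulated T cells, SEMA4F (0.88) and PTPN7 (0.87), a phosphatase of lymphoid cells. Those most alike to CTLA4 were PTPN7 (0.81), KIAA0748 (0.80) and the costimulatory receptor ICOS (0.79). TIGIT was most alike to PTPN22 (0.71), TOX (0.70) and CD27 (0.70), BTLA to the butyrophilins BTN3A1 (0.82) and BTN3A2 (0.81) and to PTPN7 (0.81), and LAG3 to NPHP4 (0.74), ARHGAP9 (0.73) and IL2RB (0.72), a chain of the receptor for IL-2 and IL-15. CD274 was most alike to VAMP3 (0.80), ARHGEF6 (0.79) and ACSS1 (0.79), of which only ARHGEF6 was among the first 3 without the 5 biopsies that stood apart. PDCD1LG2 was most alike to TFEC (0.71) and RNASE6 (0.70), and HAVCR2 to MEFV, DDX39B and KIAA1614 (0.62 each). LGALS9 was most alike to LGALS9C (0.97) and LGALS9B (0.97), which may share its reads, and then to the interferon-induced antiviral gene OAS3 (0.89). Without the 5 biopsies the same 3 genes came first for PDCD1, CTLA4, TIGIT, BTLA and LGALS9, but only 1 of 3 for LAG3 (NPHP4) and for HAVCR2 (DDX39B).

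The binding partners of these receptors were followed as a list. The list also held CD226, CD96 and CD160, which are lymphocyte receptors and not ligands of the checkpoint receptors. Of 14 genes of this list tested, 3 rose at weeks 0 and 3, 4 at week 7, 7 at week 11 and 6 at week 15. Their median log2 fold change was 0.44 at week 15. Over all genes 10.3% rose at week 0, 7.24% at week 3, 11.4% at week 7, 12.6% at week 11 and 13.4% at week 15. The ligands shared by CTLA4 and CD28 rose at week 15, CD86 by 2.33 (SE 0.29, adjusted p = 5.26e-06) and CD80 by 2.04 (SE 0.45, adjusted p = 0.00148). CD226, the activating counterpart of TIGIT, rose by 1.52 (SE 0.41), and CD160, which shares TNFRSF14 with BTLA, rose by 1.30 (SE 0.34).

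Among other inhibitory receptors and ligands, 2 rose and 3 fell of 9 tested at week 0, when 8.15% of all genes fell, and 4 rose and none fell at week 15. IDO1, an interferon-induced enzyme that degrades tryptophan, rose by 4.52 (SE 0.59, adjusted p = 8.41e-06), LAIR1 by 1.12, CD276 by 0.88 and CD47 by 0.64. Of the costimulatory list, 3 rose and 2 fell of 11 at week 0, and 6 rose and 1 fell of 10 at week 15. ICOS rose by 2.15 (SE 0.56), CD40 by 1.98 (SE 0.29) and CD27 by 1.5 (SE 0.49), whereas TNFSF4, the ligand of OX40, fell by 1.84 (SE 0.15).

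Of 11 transcription factors and signalling genes of activated or chronically stimulated T cells, 3 rose and 1 fell at week 0, 5 rose at week 11 and 8 at week 15, with a median of 1.52 at week 15. TOX rose by 2.37 (SE 0.49, adjusted p = 0.000943), NR4A3 by 2.33 (SE 0.53), NFATC1 by 2.19 (SE 0.13) and NR4A2 by 2.03 (SE 0.41). Of the 13 interferon signalling genes, 6 rose at each week from 0 to 15 and 1 fell at weeks 7 and 15. At week 15 IRF1, an interferon-induced transcription factor, rose by 2.13 (SE 0.24, adjusted p = 1.69e-06), JAK2 by 1.63 (SE 0.14) and the feedback inhibitor SOCS1 by 1.46 (SE 0.12).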

How the data were processed

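Poly(A) RNA of liver biopsies was sequenced by the authors as paired reads of 50 nucleotides. Mapping by the authors used Bowtie2 and SAMtools on a woodchuck transcriptome they assembled. Per gene and run they deposited expected counts, not normalized (118 of 3368022 nonzero entries are fractions), and RPKM values, used here only to order genes by level. Versions are not given in the sources used here. The deposited counts of 203 runs were summed to 164 biopsies and rounded, and those of M1004 (7) and of other weeks (8) were left out of the comparisons. The virus entry was left out. Weeks follow the paper: in the labels, dosing starts in week 1 rather than 0. Levels are TMM-scaled CPM.

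Tests used edgeR 4.0.16 in R 4.3.3 (TMM, filterByExpr, quasi-likelihood F test, Benjamini-Hochberg over all genes tested), per week, off treatment on counts summed per animal, and between weeks in 1 fit. SE is the log2 fold change over the root of F. DESeq2 1.42.0 and limma 3.58.1 served as alternatives. The tests were checked on simulated data, with changes placed only in genes averaging 1 CPM or more. The check thus does not cover genes below that level, such as BTLA and TIGIT. Of 200 genes changed 2-fold, edgeR recovered 158 at week 15 and 127 at week 23. Of 200 changed 4-fold it recovered 196 and 191. Biopsies of 1 animal carry its number, and their deviations from group means had a median r of 0.31 (450 pairs, 328 above 0.1), against -0.01 between animals, so a fit with the animal as a block was also made.

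All 9 genes were described at every week. List genes are the called ones of the largest change at week 15, at most 4 per list, and most alike genes the 3 with the highest r among those averaging 1 CPM or more. Some genes these rules select are not reported here. The genes and lists were chosen with earlier results of these data known. Groups by treatment response are not in the labels and were not used.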

Additional observations from a re-analysis of the deposited data

Results flagged for a closer look

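In 19 of 90 groups of 5 to 10 animals, 1 animal lay farther from the others than Dixon's 95% criterion allows. By chance the criterion flags about 1 in 20 groups of normally distributed values. It was applied here to CPM and not to log2 levels. CPM can be skewed upward, so the number of flagged groups cannot be set against that rate. The genes are correlated and the same animals recur, so these are not 19 separate events. F1020 was the high animal at week 15 for PDCD1 (67.0 CPM), CTLA4 (5.83 CPM), LAG3 (34.1 CPM), PDCD1LG2 (2.49 CPM) and TIGIT (1.07 CPM), and at week 11 for CTLA4 (4.87 CPM) and TIGIT (0.68 CPM). M1002 was the high animal at week 7 for PDCD1 (13.1 CPM) and TIGIT (0.32 CPM). Off treatment, F1013 stood high at week 23 for PDCD1 (11.7 CPM), CD274 (4.42 CPM) and TIGIT (0.23 CPM), and F1018 at week 19 for HAVCR2 (23.9 CPM). Among placebo animals, M1008 stood high for BTLA at week 11 (1.21 CPM), for TIGIT at week 19 (0.23 CPM), and for CD274 (6.31 CPM) and PDCD1LG2 (2.68 CPM) at week 23, when M1005 stood high for LGALS9 (62.4 CPM). The only low animal was F1013 at week 3, with LGALS9 at 12.8 CPM.

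The effect of wIFN-α differed between weeks by its own test for 10 pairs of gene and contrast. It was greater at week 15 than at weeks 0 and 3 for PDCD1 (2.78) and CTLA4 (1.98, which did not hold without F1020). It was lower off treatment than at week 15 for LGALS9 (-2.87), PDCD1 (-2.75), CD274 (-2.71), LAG3 (-2.30), CTLA4 (-2.18), BTLA (-1.64), PDCD1LG2 (-1.44) and HAVCR2 (-0.53), all on the log2 scale.

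Biopsies outside the comparisons also held levels above all 81 placebo biopsies in 16 cases. In M1004, LGALS9 was at 128 CPM at week 0, 138 at week 3, 134 at week 7, 101 at week 11 and 104 at week 15, CD274 was at 19.6 CPM at week 0 and 14.9 CPM at week 11, and PDCD1LG2 was at 2.80 CPM at week 0. In the biopsy of M1006 labelled week 3, CD274 was at 19.8 CPM and LGALS9 at 83.5 CPM. In wIFN-α animals sampled at death, CD274 was at 26.3 CPM and LGALS9 at 104 CPM in M1007, CTLA4 at 3.31 CPM in F1020, and PDCD1LG2 at 4.27 CPM, HAVCR2 at 57.4 CPM and LGALS9 at 71.2 CPM in F1023. For CD274 the highest placebo biopsy was the muscle-containing one of F1016 at week -3, at 13.2 CPM. CD274 in M1004 at weeks 3, 7 and 15 (10.9, 12.7 and 12.9 CPM) and in F1023 at death (12.6 CPM) was below it. These values were above every other placebo biopsy, of which F1021 at week 3 was highest (7.25 CPM). Each of the values given here is from 1 biopsy and was not tested.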

How the results depend on the processing

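Of 286 recounts of checkpoint genes called under another setting, 283 stayed within 1.5 times the count. At week 7, 2 genes were called with the animal as a replicate block, against 4 without, and for week 15 against weeks 0 and 3, 1 gene was called with limma-voom and 1 to 2 genes with single wIFN-α animals left out, against 2. Of 2207 effects under another setting, 2121 kept direction and call, 17 lost and 17 gained a call. The calls changed by the block are given beside the results, and the HAVCR2 effect of week 0 also crossed 1.5-fold with it (0.59), as it did without M1006 or M1007. The cause of these changes was not tested.

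In 52 cases an effect changed sign, in each case with an adjusted p of at least 0.81. With the replicate block these were PDCD1 at week 0 (0.14) and week 23 (0.24), CTLA4 at week 7 (-0.12) and week 19 (0.29), BTLA for week 7 against weeks 0 and 3 (-0.067) and LGALS9 for week 15 against week 7 (-0.036). With limma-voom they were PDCD1 at week -3 (0.10) and off treatment (0.046), CTLA4 at week 3 (0.061) and week 19 (0.10), and BTLA for week 7 against weeks 0 and 3 (-0.0040). With the lane number as a covariate they included BTLA for week 7 against weeks 0 and 3 (-0.0078). They also included PDCD1LG2 for week 15 against week 7 (-0.051). Without muscle-containing biopsies they were HAVCR2 at week -3 (0.0066) and PDCD1 at week 3 (-0.027), and with M1004 included CD274 at week 19 (-0.012). In alternatives chosen after seeing the data (also applied to the correlations) they were BTLA at week 3 (0.025) and for week 7 against weeks 0 and 3 (-0.0011) without the 5 biopsies that stood apart, and LGALS9 for week 15 against week 7 (-0.027) with the 3 galectin-9 symbols summed.

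With single animals left out, effects that crossed 0 ranged as follows. At week 3 they were -0.20 to 0.034 for BTLA, -0.16 to 0.054 for CTLA4 and -0.059 to 0.091 for PDCD1, and at week 7 -0.37 to 0.0022 for BTLA, -0.12 to 0.29 for CTLA4 and -0.060 to 0.40 for PDCD1. At week 19 they were -0.10 to 0.32 for CD274, -0.40 to 0.29 for CTLA4, -0.025 to 0.13 for HAVCR2, -0.072 to 0.91 for PDCD1 and -0.0082 to 0.49 for PDCD1LG2. For week 15 against weeks 0 and 3 HAVCR2 ranged from -0.0072 to 0.10. For week 7 against weeks 0 and 3 the ranges were -0.19 to 0.21 for BTLA, -0.049 to 0.56 for CTLA4 and -0.083 to 0.038 for HAVCR2. PDCD1LG2 ranged from -0.11 to 0.24 for week 15 against week 7 and from -0.30 to 0.050 for week 3 against week 0.

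Single animals were left out of both groups at weeks 11, 15 and 19 and of the wIFN-α group at weeks 0, 3 and 7, off treatment and between weeks, and none at weeks -3 and 23 alone. Of 144 ratios to T cell markers under another setting, 26 moved by more than 1 SD. Low counts limit PDCD1LG2, CTLA4, BTLA and TIGIT (medians of 17, 14, 13 and 2 reads). Replicates are separate animals.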
